A study of Mus musculus with 3 samples.

Results

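The replication-dependent histone genes encode the linker histone H1 and the core histones H2A, H2B, H3 and H4 that package newly made DNA. They were taken here as every gene of the deposited tables whose GENCODE M21 mouse symbol starts with Hist1h, Hist2h, Hist3h or Hist4h, genes without a count included. The rule found 65 of the 22457 genes in the tables: 6 H1, 19 H2A, 15 H2B, 12 H3 and 13 H4 genes. M21 holds 70 such symbols, and the other 5 (Hist2h2bb, Hist3h2bb-ps, Hist1h2aj, Hist1h2bm and Hist1h2bh) are in no count of expression here; 2 of them enter the sequence counts over all M21 symbols. All 65 are annotated as protein-coding except Hist1h2al, a processed pseudogene.

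The RNA came from primary Treg cells (regulatory T cells, a CD4 lineage that holds other immune cells in check) of male adult mice aged 4 months, and poly(A) RNA was sequenced. The labels number 3 technical libraries (1, 2 and 3) from a single biological replicate, so there is 1 group and no treatment, genotype or control to compare it with. The sources used here do not give the strain, the organ or the sort. The libraries held 3316275, 3079004 and 2782259 counts in that order. Levels are CPM, a gene's counts in each 1000000 counts of its library, given as mean ± SD over the 3 libraries. That SD measures the spread between technical libraries, and each p-value below compares these libraries. Neither says anything of the spread between animals. All 7 genes of the Treg and CD4 T cell list reached 1 CPM in every library, and Foxp3, which defines the lineage, had 448, 447 and 407 counts.

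Replication-dependent histone genes are transcribed mainly while a cell copies its DNA. Their messenger RNAs, unlike those of other protein-coding genes, usually end in a short stem-loop in place of a poly(A) tail. The stem-loop is bound by the protein Slbp, and the RNA is cut just after it by a complex that holds the U7 small nuclear ribonucleoprotein. Some histone genes can also give RNAs that run past the stem-loop and carry a poly(A) tail, and selection of poly(A) RNA retains these.

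To see this end in the genes measured, the motif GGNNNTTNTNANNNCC was searched, in the sense direction, in the first 100 bases after the stop codon of the M21 transcripts of GRCm38 (the assembly also called mm10). Of the 65 genes, 44 held a match, 6 had 16 or more bases of annotated 3′ UTR without a match, and 15 had no annotated 3′ UTR of that length. Counting all 70 symbols, 27 of the 31 with an annotated window of the full 100 bases held the motif (87.1%), against 56 of 20136 other protein-coding genes (0.278%). On the opposite strand the motif was in 0 of those 31 and in 37 of the 20136 (0.184%). The stems below are shown because the bases of the stem separated H4 from all other types. Capitals mark the 16-base stem-loop match, and the lower case letters are the 5 bases on each side, written 5′ to 3′ on the strand of the gene.
Hist1h1e (H1, chr13:23621777-23621802, minus strand): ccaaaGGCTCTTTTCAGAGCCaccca
Hist1h2ae (H2A, chr13:23570663-23570688, minus strand): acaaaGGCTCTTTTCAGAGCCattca
Hist2h2ac (H2A, chr3:96220413-96220438, minus strand): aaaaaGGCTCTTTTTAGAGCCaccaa
Hist1h2bj (H2B, chr13:22043633-22043658, plus strand): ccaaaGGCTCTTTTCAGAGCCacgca
Hist1h3g (H3, chr13:23535884-23535909, plus strand): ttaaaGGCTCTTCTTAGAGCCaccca
Hist1h4d (H4, chr13:23581945-23581970, plus strand): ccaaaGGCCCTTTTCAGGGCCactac
Hist1h4i (H4, chr13:22040961-22040986, minus strand): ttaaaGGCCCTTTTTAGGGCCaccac
Hist1h4j (H4, chr13:21735432-21735457, plus strand): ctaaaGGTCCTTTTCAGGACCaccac

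The left arm began with GGCTC in all 32 matching genes of the H1 (4), H2A (11), H2B (8) and H3 (9) types. In H4 it began with GGCCC in 10 genes and with GGTCC in the other 2. The form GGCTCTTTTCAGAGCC was the most frequent of 8, found in 24 genes of the H1, H2A, H2B and H3 types, 9 of which were detected. Of the 6 genes with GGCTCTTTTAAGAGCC, none was detected. Over all 65 histone genes 17 were detected, and 47.3% of all genes were. A link between the form and detection was not tested, and 6 genes are few. A match is a description of the annotated sequence and was not tested for function.

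Histone genes took a small part of the counts. Together the 65 genes held 1179, 1069 and 1106 counts in libraries 1, 2 and 3, which is 0.0356%, 0.0347% and 0.0398% of the totals. The exact 95% Clopper-Pearson intervals were 0.0336% to 0.0376%, 0.0327% to 0.0369% and 0.0374% to 0.0422%. Library 3 was the highest, its interval overlapped that of library 1 narrowly and lay above that of library 2, and the highest share was 1.14 times the lowest. Intervals cover counting error only, since copies of 1 molecule are not independent. In bulk RNA, the share of dividing cells, the histone RNA per cell and the part of it that poly(A) selection retains cannot be told apart.

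Detection here means that a gene reached 1 CPM in all 3 libraries. By this rule 17 of the 65 histone genes were detected, against a background of 47.3% of all 22457 genes. A further 13 had no count in any library (32.4% of all genes had none), which allows up to 0.905, 0.974 and 1.08 CPM in libraries 1, 2 and 3 (3 counts). The other 35 had 180 counts between them. The median level of the 65 genes was 0.429 CPM, and that of all genes was 1.08 CPM. Per kilobase of coding sequence the medians were nearly equal, at 1.10 CPM for the histone genes and 1.13 CPM for all genes with a coding length.

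The counts lay on few genes. Hist1h1b, Hist1h1e, Hist1h4d and Hist1h2ae together had 73.1% of all histone counts, and the 17 detected genes had 94.6%. In the order of the 17 by mean CPM, 13 of the 16 neighbouring pairs had overlapping ranges over the 3 libraries. The 3 steps without overlap were from Hist1h1b to Hist1h1e, from Hist1h2ae to Hist1h1c, and from Hist3h2a to Hist1h1d.

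**Figure D1:**
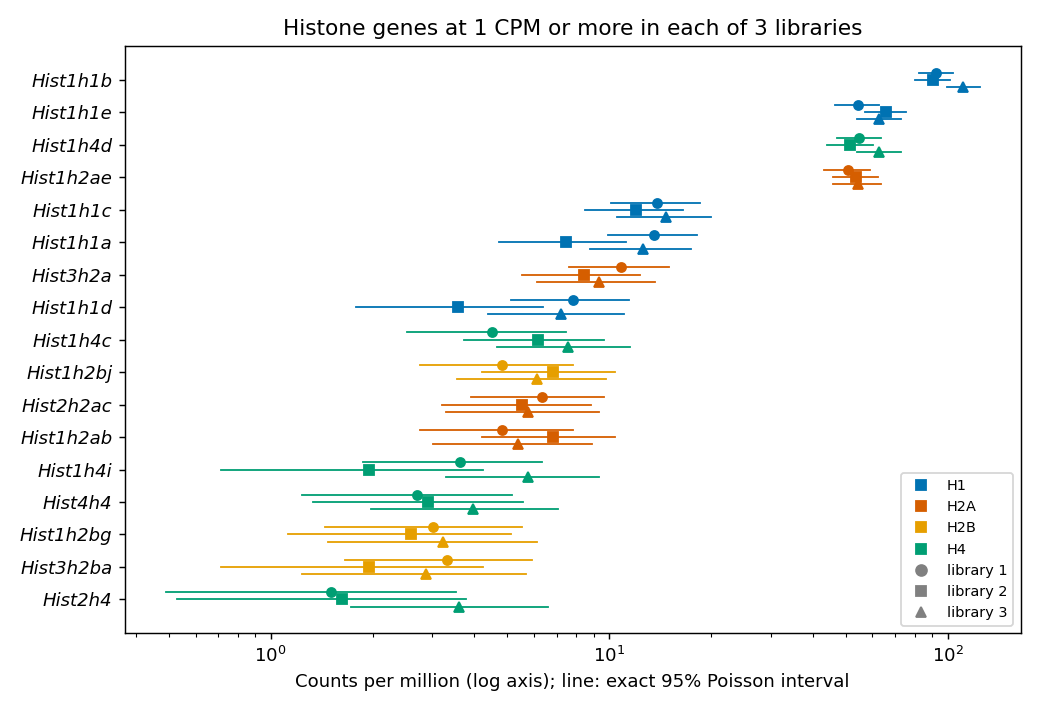
Level in CPM (log axis) of the 17 histone genes detected in each of the 3 libraries. Each marker is 1 library (circle 1, square 2, triangle 3), each line is its exact 95% Poisson interval, and colour gives the histone type. Hist1h1b stands highest, 3 genes follow at means of 52.8 to 60.9 CPM, and the other 13 lie at means of 13.5 CPM or less.

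Linker histone H1, which binds the DNA where it enters and leaves the nucleosome, carried the largest part of the counts. The 6 H1 genes summed to 182, 179 and 209 CPM in libraries 1, 2 and 3 (190.0 ± 16.4), which is 51.8% of all histone counts. Detection was reached by 5 of the 6. Sums by type are not divided by length, and the coding sequence of Hist1h1b is 669 bases against 309 for Hist1h4d. Their annotated exons, UTRs included, go the other way, at 743 and 1138 bases. The part of gene length in the lead of H1 was not tested. Hist1h1b, which encodes the variant H1.5 (chromosome 13, 21779883 to 21780625, minus strand), had 307, 278 and 310 counts. This is 92.6, 90.3 and 111 CPM (98.1 ± 11.6), with library 3 above the other 2. It has no annotated 3′ UTR in M21, so its end could not be searched.

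Hist1h1e, which encodes H1.4 (chromosome 13, 23620629 to 23622558, minus strand), had 180, 202 and 175 counts, or 54.3, 65.6 and 62.9 CPM (60.9 ± 5.92). Its lowest library was library 1, where Hist1h1b was in the middle, so the H1 genes did not share 1 order of libraries. Its exon overlaps that of Hist1h2be by 450 bases on the same strand, and how reads in that stretch were assigned is not given in the sources used here.

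The other H1 genes lay lower. Hist1h1c (H1.2; chromosome 13, 23738808 to 23740367) had 46, 37 and 41 counts, a level of 13.5 ± 1.39 CPM with close libraries. Hist1h1a (H1.1; 23763666 to 23764406) had 45, 23 and 35 counts (11.2 ± 3.27 CPM), and Hist1h1d (H1.3; 23553262 to 23560686) had 26, 11 and 20 (6.20 ± 2.30 CPM). Both were lowest in library 2. Hist1h1t, the H1 gene of male germ cells, had no count in any library, although 600 of its coding 31-mers (stretches of 31 bases) occur in no other gene.

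H2A, which pairs with H2B in the nucleosome, had 1 abundant gene. The 19 H2A genes summed to 78.1, 79.9 and 80.9 CPM (79.6 ± 1.41), with the narrowest relative spread of the 5 types. Hist1h2ae (chromosome 13, 23570517 to 23571220, minus strand) had 168, 165 and 151 counts, or 50.7, 53.6 and 54.3 CPM (52.8 ± 1.92). Of the other 18 H2A genes, 3 were detected. Hist3h2a (chromosome 11, 58954685 to 58956830) had 36, 26 and 26 counts (9.55 ± 1.22 CPM), and its exon overlaps that of Trim17 by 708 bases on the same strand. Hist2h2ac (chromosome 3, 96220361 to 96220880) had 21, 17 and 16 counts (5.87 ± 0.418 CPM), and Hist1h2ab (chromosome 13, 23751126 to 23751598) had 16, 21 and 15 (5.68 ± 1.03 CPM). Hist1h2ak, with 7, 3 and 7 counts, missed the threshold in library 2 only. A group of 9 H2A genes had 1 to 10 summed counts, and Hist1h2al, Hist1h2ao, Hist1h2ap, Hist2h2aa1 and Hist2h2aa2 had none.

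H2B genes were low throughout. The 15 summed to 19.6, 16.6 and 15.8 CPM (17.3 ± 2.00), and 3 were detected. Hist1h2bj (chromosome 13, 22043214 to 22043676) had 16, 21 and 17 counts (5.92 ± 1.01 CPM), Hist1h2bg (23571396 to 23572013) had 10, 8 and 9 (2.95 ± 0.323 CPM), and Hist3h2ba (chromosome 11, 58948920 to 58949533) had 11, 6 and 8 (2.71 ± 0.698 CPM). Hist2h2be had 9, 4 and 2 counts and Hist1h2bc 5, 2 and 4. Hist1h2ba, Hist1h2bf, Hist1h2bq and Hist1h2br had no count.

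H3, whose tail carries many regulatory modifications, had the lowest summed level of the 5 types. No H3 gene was detected: the 12 genes summed to 6.63, 4.22 and 5.39 CPM (5.42 ± 1.21), with 22, 13 and 15 counts in all. The highest, Hist1h3e, had 5, 1 and 3 counts (0.970 ± 0.599 CPM), and Hist2h3c1 and Hist2h3c2 had none. The median H3 gene (0.379 CPM, 0.929 per coding kb) was not below the median H2A gene (0.336 CPM, 0.867 per coding kb).

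H4, which pairs with H3, summed to 69.1, 67.6 and 86.6 CPM over 13 genes (74.4 ± 10.6), with library 3 highest. Hist1h4d (chromosome 13, 23581598 to 23582735, plus strand) held most of it, with 182, 159 and 175 counts, or 54.9, 51.6 and 62.9 CPM (56.5 ± 5.80). Of the other 12, 4 were detected. Hist1h4c (23697635 to 23698454) had 15, 19 and 21 counts (6.08 ± 1.51 CPM), and Hist1h4i (22040636 to 22041362) had 12, 6 and 16 (3.77 ± 1.91 CPM). Hist4h4 (chromosome 6, 136801553 to 136804415) had 9, 9 and 11 counts (3.20 ± 0.664 CPM), and Hist2h4 (chromosome 3, 96261682 to 96263311) had 5, 5 and 10 (2.24 ± 1.17 CPM). Hist1h4m had no count. H3 and H4 are present in equal amounts in the nucleosome, and their summed levels here were 5.42 and 74.4 CPM.

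**Figure D2:**
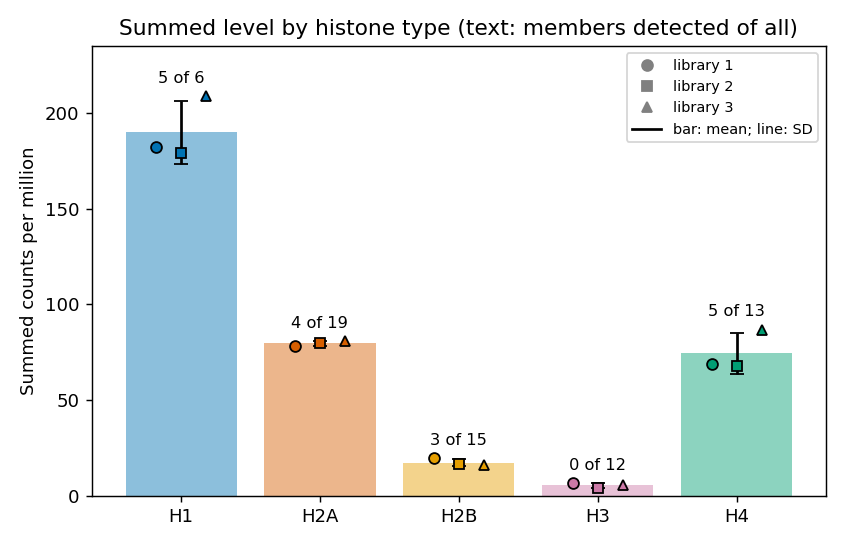
Summed level in CPM of the genes of each histone type, not divided by gene length. Bars are the mean and black lines the SD over 3 libraries, markers are the libraries, and the text above each bar gives the detected genes of all genes of the type. H1 summed to 179 to 209 CPM, H2A and H4 to 67.6 to 86.6 CPM, and H2B and H3 to under 20 CPM in every library.

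Levels of different genes compare only per length. Per kilobase of coding sequence, Hist1h4d stood highest at 183 ± 18.8 CPM, followed by Hist1h1b at 147 ± 17.3, Hist1h2ae at 135 ± 4.92 and Hist1h1e at 92.7 ± 9.0. The lowest library of Hist1h4d (167.1 CPM per kb) was barely above the highest of Hist1h1b (166.5), while Hist1h1b and Hist1h2ae overlapped. The same 4 genes thus led on both scales, in another order. The next gene by this measure was Hist3h2a, at 24.5 ± 3.12 CPM per kb. Per kilobase of annotated exon, which adds the UTRs, Hist1h1b was first at 132 CPM, then Hist1h2ae at 75.1, Hist1h4d at 49.6 and Hist1h1e at 31.6. The order among the 4 therefore depends on the length used. The counts were made with GENCODE M4, and the gene version was the same in M21 for 42 of the 65 genes, Hist1h1b among them but not Hist1h1e, Hist1h4d or Hist1h2ae.

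The genes lie in a few stretches of the genome. Grouped wherever neighbours were within 100 kb, 28 of them fell in chromosome 13, 23531050 to 23764406. This stretch held 61.7% of the histone counts (226 ± 11.8 CPM), 9 detected genes, and Hist1h1e, Hist1h4d and Hist1h2ae among them. A second stretch on chromosome 13, 21715763 to 21837530, held 17 genes and 28.2% of the counts, nearly all of them on Hist1h1b, its only detected gene. The Hist2 genes on chromosome 3 (9 genes), the Hist3 genes on chromosome 11 (2 genes) and Hist4h4 on chromosome 6 held 2.77%, 3.37% and 0.865% of the counts. Hist1h2ba and Hist1h2aa, which lie side by side and are known from the male germ line, had 2 counts between them.

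Many histone genes share much of their sequence with other annotated genes, which can limit the counts a single gene is given. A coding 31-mer was called unique where it occurred in no transcript of another gene on either strand. The other gene can be one annotated over the same place, which was not told apart from likeness between histone genes. Gm20628 overlaps Hist2h3b by 488 bases, Gm20634 overlaps Hist2h3c1 by 1825, and Trim17 overlaps Hist3h2a by 708. Of the 15 genes with no unique coding 31-mer, 1 was detected (Hist3h2a) and 9 had no count. Of the 33 with 1 to 99 unique ones, 6 were detected and 1 had no count, and of the 16 with 100 or more, 10 were detected and 2 had no count. The 4 pairs Hist1h2ao with Hist1h2ap, Hist1h2bq with Hist1h2br, Hist1h4m with Hist1h4n and Hist2h2aa1 with Hist2h2aa2 have identical coding sequences, and these 8 genes had 1 count in all. Across the 64 coding genes, Spearman's rho between the number of unique coding 31-mers and mean CPM was 0.54, and Pearson's r with log2(CPM + 1) was 0.53, given as a description over genes of the same libraries.

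**Figure D3:**
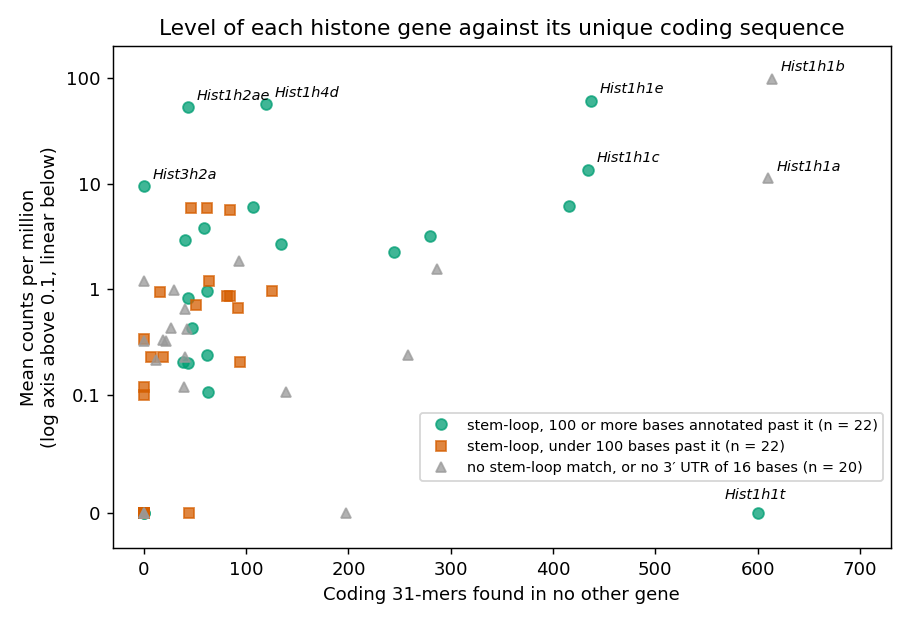
Mean level in CPM (log axis above 0.1, linear below) of the 64 coding histone genes against the number of their coding 31-mers found in no other gene. Colour and shape give the annotated 3′ end. Of the 15 genes without unique 31-mers, Hist3h2a lies at 9.55 CPM, Hist1h2bc at 1.20 and the other 13 at 0.340 or less, while Hist1h2ae reaches 52.8 CPM with 43 unique 31-mers and Hist1h1t stays at 0 with 600.

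Between 0.327% and 34.6% of the coding 31-mers of the 5 detected H1 genes also occurred in other genes, whereas Hist1h4d shared 57.8% and Hist1h2ae 88.2%. The 12 H3 genes shared 78.0% to 100%, and the H3 level is therefore uncertain. The same holds for the other core types: the median gene shared 93.4% in H2A, 90.4% in H3, 87.7% in H2B and 77.7% in H4. How reads with several matches were treated is not given in the sources used here, and the part of shared sequence in the order of the types was not tested. With the 53 genes that share 50% or more of their coding 31-mers left out, H1 stayed at 190.0 CPM, H2A fell to 0.240, H2B to 1.58 and H4 to 5.44, and no H3 gene remained. Over whole transcripts, UTRs included, Hist1h4d shared 14.7% of its 31-mers and Hist1h2ae 47.9%. By that measure both lie under 50%, so the fall of H2A and H4 depends on the use of coding sequence alone.

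Detection was also counted by the annotated length past the stem-loop. Among the 44 genes with a match, 22 have transcripts annotated for 100 or more bases past it, and 12 of these were detected (median 2.48 CPM over all 22). The other 22 end within 100 bases of it, and 3 of these were detected (Hist1h2bj, Hist2h2ac and Hist1h2ab; median 0.284 CPM over all 22). The longer group held 60.9% of all histone counts and the shorter group 6.83%. This division was chosen after the values were seen and has no test. Per kilobase of annotated exon the medians were 1.14 and 0.638 CPM. Over the 64 coding genes, Spearman's rho of mean CPM with annotated 3′ UTR length was 0.17, again a description.

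Unique sequence differed between these groups as well, and its part in the difference was not tested. Of the longer genes 9 had 100 or more unique coding 31-mers and 8 of them were detected, while 1 of the shorter genes had as many (Hist1h2bb, not detected). Among genes with 1 to 99 unique coding 31-mers, 3 of 10 longer and 3 of 13 shorter genes were detected, with medians of 0.632 and 0.866 CPM. Limited to genes of unchanged version, 5 of 9 longer and 3 of 17 shorter genes were detected. Hist1h1b and Hist1h1a, the first and sixth of all histone genes by level, belong to neither group.

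The poly(A) signals AATAAA and ATTAAA were also searched, in the last 50 bases of annotated 3′ UTRs of 50 bases or more. At least 1 transcript held one in 17 of the 50 histone genes of M21 with such a UTR (34.0%; 48 of the 50 are among the 65), against 16897 of 20743 other protein-coding genes (81.5%). On the opposite strand it was in 3 of the 50 and in 3765 of the 20743 (18.2%). Among the 22 longer genes, 12 held a signal there and 7 of them were detected, and of the 10 without it 5 were detected. Hist1h2ae had one, and Hist1h1e and Hist1h4d did not in these windows.

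No histone gene passed a test of difference between the libraries. A chi-square test (2 degrees of freedom) asked whether the counts of a gene split over the libraries as their totals do. The test allows for counting (Poisson) noise only, not for further spread between libraries. It was run on all 10043 genes that had at least 30 counts in total, and Benjamini-Hochberg adjusted p-values under 0.05 passed. Of the 13 histone genes tested 0 passed, against 22.7% of all genes tested; among genes with no more summed counts than Hist1h1b the share was 15.8%, and among those with under 100 it was 11.7%. At an unadjusted p under 0.05 there was 1, Hist1h1b (chi-square test, p = 0.0184, adjusted p = 0.0716), which was highest in library 3, against 34.3% of all genes tested. The adjusted p-values of the other 12 by the same test ran from 0.148 for Hist1h1a to 0.942 for Hist2h2ac. By edgeR's quasi-likelihood test of each library against the other 2, which allows for spread between libraries, 0 of 12 passed and 1, Hist1h1d, had an unadjusted p under 0.05. Of all genes in that test, 0.114%, 0.0520% and 0.541% passed for libraries 1, 2 and 3, and 0.655% for any of them. By DESeq2 0 of 52 passed and 0 had an unadjusted p under 0.05, where 0.0132% of all genes passed in any library. With so few calls among all genes, the counts of 0 by edgeR and DESeq2 say little about the histone genes. A p that misses the threshold does not show that the levels were equal, and 9 of the 13 genes had 124 counts or fewer in all.

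Markers of other cells and of the cell cycle moved between the libraries beside this, and their part in the histone levels was not tested. The 14 B cell markers, 12 detected, summed to 1434, 1682 and 1836 CPM in libraries 1, 2 and 3, with none at 0. The 6 plasma cell markers (3 detected) summed to 305, 292 and 245 CPM. That sum was led by Prdm1 (747, 628 and 390 counts), which effector Treg cells are also known to express, while Jchain (6, 14 and 68) and Mzb1 (3, 12 and 15) were highest in library 3. The 13 monocyte and macrophage markers (6 detected) summed to 64.5, 158 and 66.5 CPM, and the 8 dendritic cell markers (1 detected, Clec9a at 0) to 6.33, 24.7 and 12.2. The 9 erythroid markers (2 detected, Klf1 and Epor at 0) summed to 6.33, 14.0 and 31.6 CPM, and the 8 thymocyte markers (2 detected, Rag1, Rag2 and Ptcra at 0) to 156, 112 and 135. In the B cell and thymocyte lists 1 gene held most of the sum, and the median marker stood at 15.3 and 0.230 CPM. The order of these sums over the libraries need not be that of the other markers. By edgeR's test 2 B cell, 1 plasma cell and 2 monocyte and macrophage markers passed in at least 1 library, beside 0.655% of all genes. The B cell and erythroid sums were highest in library 3, as was the histone share. The monocyte and macrophage and the dendritic cell sums were highest in library 2. The plasma cell and thymocyte sums were highest in library 1.

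Genes of DNA synthesis and mitosis were well represented in the same libraries. All 36 S phase genes reached detection (median 79.9 CPM per kb of coding sequence), with sums of 6818, 5882 and 6324 CPM. All 15 genes of G2 phase and mitosis did so too (median 97.4 CPM per kb), with sums of 4693, 4335 and 4355 CPM. Both sums were highest in library 1 and the histone share in library 3, and a link between them was not tested. The ribonucleotide reductase subunit Rrm2 stood at 428 ± 25.2 CPM per kb, the helicase subunit Mcm6 at 273 ± 17.0 and the thymidylate synthase Tyms at 257 ± 10.4, and the transcription factor E2f1 was lowest at 5.38 ± 1.27. In the mitotic list Birc5 (319 ± 28.8), Ccnb2 (282.5 ± 15.6) and Top2a (242 ± 12.6) were highest and Cenpf was lowest (28.5 ± 3.06 CPM per kb). Plk1, with 505, 502 and 299 counts, was the only S phase or mitotic gene to pass edgeR's test (adjusted p = 0.0489 for library 3, where it was lowest). By the chi-square test 20 of 36 S phase and 7 of 15 mitotic genes passed, beside 22.7% of all genes tested. That share rises with counts, being 11.7% among genes with under 100, and these lists had medians of 1028 and 1312 summed counts. The 22.7% is therefore a low background for them.

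Variant histones, most of which are made outside DNA replication from RNAs with poly(A) tails, stood higher per coding length than most replication-dependent genes. Of the 15 listed, 9 were detected, with a median of 33.0 CPM per kb. H2afv, an H2A.Z gene, had 456 ± 33.6 CPM per kb, H3f3b, which encodes H3.3, had 379 ± 28.5, and Cenpa, the H3 variant of centromeres, had 369 ± 32.6. H1f0, the H1 variant of resting cells, had 257, 277 and 269 counts (151 ± 16.7 CPM per kb), close to the 147 of Hist1h1b. This closeness holds per coding length only, since the annotated transcript of H1f0 is 2055 bases and that of Hist1h1b 743. H2afz (33.0 ± 7.10) and H3f3a (31.5 ± 6.35) are uncertain, since they shared 100% and 99.2% of their coding 31-mers with other genes. H1fx, H1fnt, Hils1 and H2bfm had no count. Of 9 variant genes tested, H2afy passed the chi-square test (393, 428 and 277 counts, adjusted p = 0.00105) and none passed edgeR's test (22.7% and 0.655% of all genes).

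H2afx, the damage-responsive H2A variant, carries the same kind of 3′ end and is known to give both kinds of RNA. Its match, shown because it has the H4 arm in an H2A gene, begins at base 47 after the stop codon. The annotated transcript runs 822 bases past the match and has a poly(A) signal 35 bases before its end.
H2afx (chr9:44335235-44335260, plus strand): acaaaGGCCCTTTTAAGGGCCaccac
H2afx had 124, 150 and 110 counts, a level of 41.9 ± 6.02 CPM, or 97.6 ± 14.0 CPM per kb. On that scale it lay between Hist1h1e and Hist1h2ae.

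Most genes of histone RNA processing were detected. Of 31 genes listed for histone RNA processing and decay, 29 were measured and 26 detected, with a median of 75.9 CPM per kb of coding sequence. Slbp had 971, 923 and 862 counts (365 ± 10.4 CPM per kb), with close libraries. Npat, the coactivator of histone gene transcription, had 392, 382 and 312 counts (27.7 ± 1.40 CPM per kb), and Casp8ap2, a partner of the U7 complex in cutting, had 45.04 ± 2.61. The proteins that set the U7 particle apart from those of splicing were uneven: Lsm10 had 181, 159 and 164 counts (150.4 ± 10.04 CPM per kb), and Lsm11, which was not detected, had 3, 5 and 6 (1.44 ± 0.580). Zfp473, a zinc finger protein of the U7 complex, had 12, 3 and 7 counts and was not detected either; it and the B cell and plasma cell genes named above were chosen after their values were seen. Snrpb (505 ± 33.7), Mif4gd (442 ± 15.3) and Snrpd3 (438 ± 19.0 CPM per kb) were highest, and Mblac1, a nuclease gene with 0, 0 and 3 counts, was lowest. The chi-square test was passed by 4 of 26 (Snrpb, Fip1l1, Cstf2t and Xrn1), beside 22.7% of all genes, and edgeR's test by none, beside 0.655%.

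Chaperones that carry histones to DNA were all detected, 22 of 22, with a median of 96.0 CPM per kb. Rbbp4, a subunit of several histone-binding complexes, had 478 ± 26.8 CPM per kb, Nap1l4 289 ± 12.4 and Rbbp7 267 ± 24.7, and Cdan1 was lowest at 6.36 ± 0.228. The chi-square test was passed by 10 of 22, beside 22.7% of all genes, and edgeR's test by none, beside 0.655%. With a median of 1768 summed counts in this list, the 22.7% is a low background here too. The core histone genes had a median of 0.962 CPM per kb over 58 genes, with 11 at 0, and the H1 genes 19.4 over 6.

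**Figure D4:**
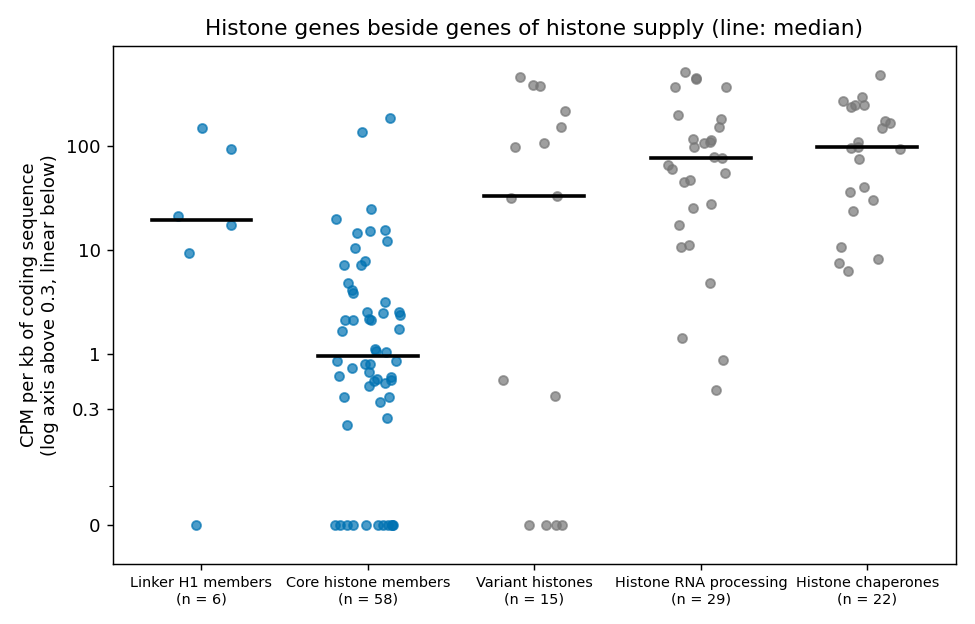
Mean CPM per kilobase of coding sequence (log axis above 0.3, linear below) of the H1 genes, the core histone genes and 3 lists of genes of histone supply. Each point is 1 gene and each line the median of its set, at 19.4, 0.962, 33.0, 75.9 and 96.0 from left to right. Per kilobase of annotated exon the H1 median is above that of the variant histones. Most core histone genes lie below 10, apart from Hist1h4d and Hist1h2ae above 100 and others up to 24.5.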

How the data were processed

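For every library the authors deposited raw counts per gene, as unscaled whole numbers. Their accompanying notes, which serve as the file headers, name assembly mm10 and annotation GENCODE M4. Aligner, counting program, strand use and handling of duplicate or multiply matching reads: not given in the sources used here. Symbols, lengths and transcript sequences came from GENCODE M21 (GRCm38); 22195 of 22457 identifiers matched a symbol, and the other 262 held 0.136% of the counts. Histone genes and comparison lists (12 lists, 184 entries) were chosen with earlier results of these data known. Named genes are every detected histone gene, the highest and lowest of each type, any that passed the chi-square test, and, of the lists of variant histones, RNA processing, chaperones, S phase and mitosis, the 3 highest and the lowest per coding length, any passing edgeR's test and 11 further ones of known role. Zcchc6 and Zcchc11 were not analysed here, and the level of 1 marker gene is not reported here. CPM (counts divided by the library total), Poisson intervals and chi-square tests used Python 3.11.15 and scipy 1.17.1; edgeR 4.0.16 (filterByExpr, TMM) and DESeq2 1.42.0 were alternatives. At the depths of 2782259 to 3316275 counts, 3 counts equal 0.905 to 1.08 CPM. The chi-square and edgeR tests were run on simulated counts with Poisson noise only. That cannot show how they behave where libraries spread more widely. Alternatives changed the threshold, scaling, count minimum, genes and libraries.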

Additional observations from a re-analysis of the deposited data

How the results depend on the processing

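Of 55 alternative values, 48 stayed within 1.5 times the main count or within 1 SD of the main value. For the share and the sums by type, leaving out a library cannot move the mean by 1 SD. Those values stayed within it by construction and say nothing of stability. Detected histone genes numbered 17 to 21 with a library left out, 25 at 0.5 CPM, 14 at 2 CPM, 12 at 10 or more counts in each library (chosen after seeing the data), and 7 among genes sharing under 50% of their coding 31-mers. In that set, which leaves out Hist1h4d and Hist1h2ae by coding sequence alone, H2A summed to 0.240 CPM, H2B to 1.58, H3 to 0 and H4 to 5.44. The histone share was 0.0351% to 0.0377% with a library left out and 0.0177% without H1, by construction. Histone genes differing between libraries numbered 0 under each alternative, of which edgeR (63 of 9620 genes called) and DESeq2 (2 of 15171) make too few calls to bear on it. With a library left out, the sums were 181 to 195 CPM for H1, 79.0 to 80.4 for H2A, 16.2 to 18.1 for H2B, 4.81 to 6.01 for H3 and 68.3 to 77.8 for H4. Of genes annotated for 50 or 200 bases past the stem-loop (chosen after seeing the data), 13 of 25 and 9 of 17 were detected, against 2 of 19 and 6 of 27 that end sooner. Limited to unchanged gene versions, 5 were detected. No paired analysis was possible because there is 1 group.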
